A study of Caenorhabditis elegans with 15 samples.

Results

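The earliest step followed here was the change in RNA between C. elegans embryos left to develop for 2 h after collection and embryos taken at 0 h. It rested on 6 of the 15 arrays of the series, the 3 titled 2A, 2B and 2C for 2 h and the 3 titled 0A, 0B and 0C for 0 h, and covered every probe set of the array other than the manufacturer's controls. All embryos of both groups came from hermaphrodites of the wild-type strain N2 that had received double-stranded RNA matching the genes lit-1, pal-1 and mex-1 in the body cavity, so that the 0 h embryos carried the same treatment as the 2 h embryos. They were dissected at the 2- to 4-cell stage and either kept at room temperature in a wet chamber for 2 h or used directly. Uninjected embryos are not analysed here, so each difference is one of time in RNAi-exposed embryos. RNA came from whole embryos, and the number of embryos per sample is not given in the sources used here.

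In C. elegans, as in other animals, the oocyte loads the egg with maternal RNA, and the embryo's own genome is largely silent at the start of development. Over the cleavage divisions much of the maternal RNA is degraded while zygotic genes are switched on, cell lineage by cell lineage. As background to the treatment, mex-1 is a maternal zinc-finger gene that restricts the fate of somatic blastomeres, lit-1 a Nemo-like kinase of the Wnt pathway, and pal-1 a Caudal homeobox gene of the posterior blastomeres. RNA interference against them together was used in the series to study the MS blastomere, a founder of pharynx and muscle.

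Levels are log2 values per probe set, so that a difference of 1.0 is a 2.0-fold change, and a gene is given by 1 probe set, as described under the processing. A gene is called higher or lower at 2 h where its p from limma, adjusted by Benjamini and Hochberg's method across the 22548 probe sets, was under 0.05, and rose and fell are used only of such genes. The array medians were 3.17 to 3.31 on the 2 h arrays and 3.18 to 3.25 on the 0 h arrays. They lie near the background mark given below and so say little about the scale of brighter probe sets. The 90th percentiles were 6.80 to 7.29 on the 2 h arrays and 7.10 to 7.45 on the 0 h arrays. Over the probe sets of an array, which are no independent replicates, arrays correlated at 0.967 to 0.985 within 2 h and 0.963 to 0.985 within 0 h, against 0.808 to 0.842 between the times. The hybridisation controls, bacterial and phage RNAs added to each array, averaged 9.81 to 10.53 on the 2 h arrays and 8.64 to 9.72 on the 0 h arrays, and the part of this offset in the results was not tested. A level under 3.22, the top reading among control probe sets for background, was taken as within background.

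The stage labels were set against marker genes. The 8 maternal markers of the 2- to 4-cell embryo, among them pos-1 and nos-2, had a mean level of 4.74 to 5.29 on the 2 h arrays and 8.83 to 9.69 on the 0 h arrays. The oocyte markers rme-2 and cpg-2 averaged 3.49 to 4.21 on the 2 h arrays and 9.04 to 10.2 on the 0 h arrays. Muscle and gut markers were near background at both times. The 3 muscle markers averaged 3.05 to 3.16 at 2 h and 3.07 to 3.23 at 0 h, and the 3 gut markers 2.75 to 3.11 at 2 h and 2.81 to 2.87 at 0 h. The 3 neuron markers were not, at 6.18 to 6.71 at 2 h and 5.69 to 5.72 at 0 h, with unc-119 called higher. The unc-119 call ended with arrays placed by their time tags and after centring on the hybridisation controls. The 3 epidermis markers averaged 3.70 to 4.02 at 2 h and 4.50 to 4.58 at 0 h, with lin-26 called lower. Among markers of cells that dissection could carry over, the 27 sperm genes averaged 4.04 to 4.36 on the 2 h arrays and 3.61 to 3.81 on the 0 h arrays, and 5 of them, all major sperm protein genes with probe sets open to cross-hybridisation, passed the test. No sperm call held without each array in turn: the count of the list was 0 when array 2C was left out and 6 when 2A was. The 5 measured yolk genes averaged 3.39 to 3.58 at 2 h and 3.51 to 4.47 at 0 h, and vit-4 alone was called, with a difference of -1.22, a call lost without any of 2 h A, 2 h B, 2 h C, 0 h A or 0 h B and missed by 1 of its 2 other probe sets. Whether such carry-over had a part in any other result was not tested.

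The 3 injected genes were not lower at 2 h. The mex-1 probe set measured 6.55, 7.04 and 6.20 on arrays 2A, 2B and 2C, against 4.02, 4.50 and 5.37 on arrays 0A, 0B and 0C. Its 2 h arrays lay above all 0 h arrays, and the difference of 1.97 (SE 0.44, limma adjusted p = 0.0095) passed the test, while a second mex-1 probe set differed by 0.33 (adjusted p = 0.61). That call ended with all 15 arrays in the fit, by title or by time tag, and after centring on the hybridisation controls. pal-1 averaged 8.63 ± 0.54 at 2 h and 6.51 ± 1.25 at 0 h (SD, n = 3), a difference of 2.12 that missed the threshold (adjusted p = 0.065), while of its other probe sets 1 passed with 2.34 and 1 missed the threshold with 0.43 (adjusted p = 0.082). lit-1 averaged 4.34 ± 0.12 at 2 h and 3.84 ± 0.13 at 0 h, a difference of 0.50 with adjusted p = 0.08. The arrays do not tell the injected RNA, the embryos' maternal RNA and their zygotic RNA apart.

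Over the whole array, 1714 probe sets (7.6%) were higher and 2093 (9.28%) lower at 2 h, of which 1407 (6.24%) and 1802 (7.99%) changed at least 2-fold. By gene this came to 1326 of 17138 higher (7.74%) and 1653 lower (9.65%), which are the shares against which each gene list below is read. Of the higher genes 1091 (6.37%) changed at least 2-fold, and of the lower genes 1454 (8.48%). The 3 arrays of 2 h lay wholly above the 3 of 0 h for 1318 of the higher genes (7.69% of all genes), and wholly below for 1633 of the lower genes (9.53%). Calls held when each of the 6 arrays was left out in turn for 984 higher genes (5.74%) and 1233 lower genes (7.19%).

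The median difference was 1.81 among higher genes and -1.86 among lower genes, with 0.018 over all genes, and the median SE of a difference was 0.173. Genes were called on these same differences, so the selection itself places their medians away from that of all genes. A rise of 4 or more log2 units was seen for 200 genes and a fall of that size for 128. For 289 of the higher genes the mean at 0 h was within background, and for 246 of the lower genes the mean at 2 h was, so that their differences are compressed at the low end. In whole embryos, fewer cells carrying a transcript and less of it per cell cannot be told apart. With arrays centred on the hybridisation controls the median of all probe sets moved to -0.71 and the higher share of all calls to 19.4%, against 45% on the deposited scale, so a direction given below is relative to the bulk of the array.

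**Figure D1:**
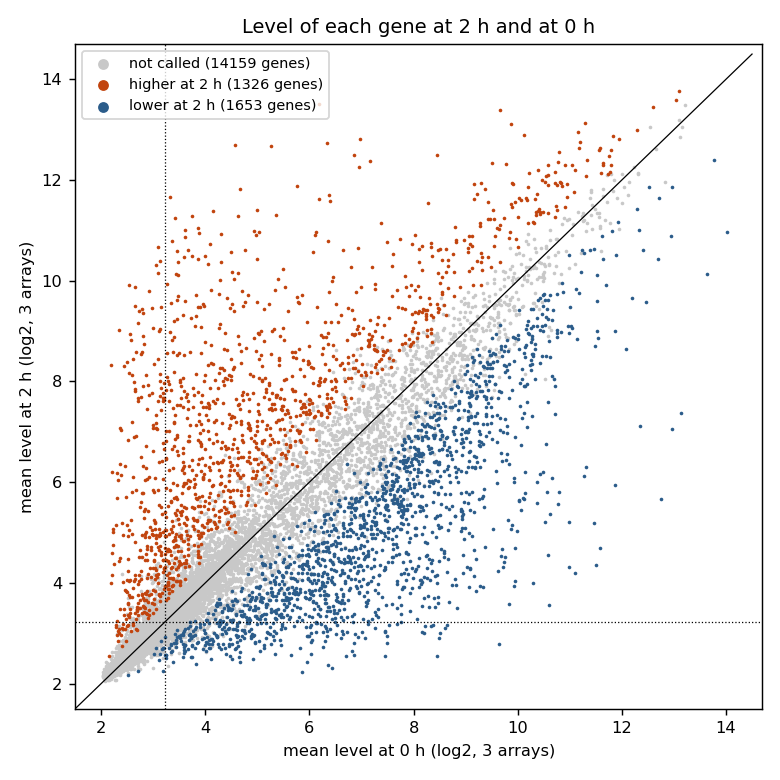
Mean level of each of the 17138 genes at 2 h (vertical axis) and at 0 h (horizontal axis), both log2 over 3 arrays, with the background mark of 3.22 as dotted lines and equality as a solid line. The 1326 genes called higher lie above the line, many of them starting within background, and the 1653 genes called lower lie beneath it.

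The largest rise was that of hmg-11, an HMG chromatin protein gene. It measured 11.57, 11.67 and 11.77 on arrays 2A, 2B and 2C, against 3.18, 3.34 and 3.42 on arrays 0A, 0B and 0C. Its 0 h arrays were at the background mark and its 2 h arrays were more than 8 log2 units above them (difference 8.35, SE 0.10, adjusted p = 9.2e-12). his-24, which encodes a linker histone H1, had 12.15, 12.95 and 12.98 on the 2 h arrays, against 4.33, 4.72 and 4.66 on the 0 h arrays. The difference was 8.13 (SE 0.31). dsl-1, a gene for a putative ligand of the Delta, Serrate and LAG-2 type, had 11.31, 11 and 11.43 at 2 h, against 3.89, 3.61 and 2.74 at 0 h, and rose by 7.83 (SE 0.39).

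The other named genes among the 15 largest rises belong to families described below. skr-9, a gene related to Skp1, an adaptor of ubiquitin ligases, had 12.84, 12.51 and 12.70 at 2 h, against 4.87, 5.01 and 5.89 at 0 h. fbxb-35, an F-box gene, had 10.01, 9.95 and 9.80 at 2 h, against 2.44, 2.40 and 2.78 at 0 h. Both were high on every 2 h array, and the 0 h arrays of fbxb-35 were all within background. sdz-28, one of the genes that depend on the maternal factor SKN-1, had 10.37, 10.30 and 10.27 at 2 h, against 3.18, 3.12 and 2.85 at 0 h. ceh-51, a homeobox gene of the MS lineage, had 10.69, 11.64 and 11.81 at 2 h, against 4.18, 4.18 and 4.05 at 0 h. These 4 rose by 7.43, 7.38, 7.27 and 7.24. The 8 remaining genes, T05D4.2, R11A5.3, C08F1.6, Y71A12B.11, F59C12.4, W04A8.5, Y41D4B.14 and Y106G6D.2, carry only a sequence name and rose by 7.22 to 7.58. Among them F59C12.4, on the X chromosome, had 13.51 ± 0.11 at 2 h, and its 0 h arrays were spread, at 6.19 ± 1.12 (SD, n = 3).

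**Figure D2:**
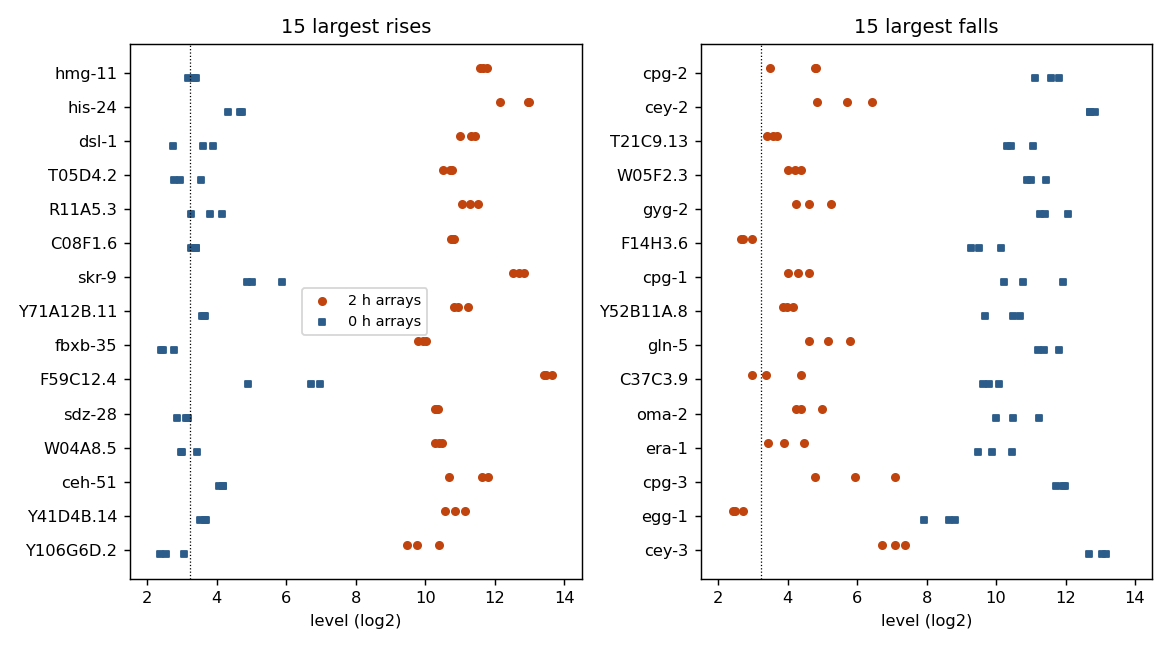
Level on each array (log2) of the 15 largest rises (left) and the 15 largest falls (right), with the 2 h arrays as circles above the 0 h arrays as squares, and the background mark of 3.22 dotted. Genes were taken only where the 3 arrays of 2 h all lay beyond the 3 of 0 h, so the separation shown follows from the choice.

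The largest fall was that of cpg-2, which encodes a chondroitin proteoglycan of the eggshell. It measured 3.48, 4.82 and 4.77 on the 2 h arrays, against 11.82, 11.11 and 11.58 on the 0 h arrays. All 2 h arrays lay more than 6 log2 units below all 0 h arrays (difference -7.14, SE 0.32, adjusted p = 6.9e-08). cey-2, a Y-box RNA-binding protein gene, had 4.86, 5.72 and 6.44 at 2 h, against 12.85, 12.71 and 12.72 at 0 h, and fell by 7.09. gyg-2, a glycogenin gene, had 4.61, 4.23 and 5.25 at 2 h, against 11.25, 11.40 and 12.07 at 0 h, and fell by 6.87. The 2 h arrays of cey-2 were spread over more than 1.5 log2 units while its 0 h arrays were within 0.15.

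Further eggshell and oocyte genes were among the 15 largest falls. cpg-1 and cpg-3, further eggshell proteoglycan genes, fell (differences -6.67 and -5.93), and egg-1, whose product sits on the egg surface and is needed for fertilisation, fell by 5.91 to a 2 h level within background, 2.55 ± 0.15 at 2 h against 8.45 ± 0.47 at 0 h (SD, n = 3). oma-2, a zinc-finger gene of oocyte maturation, fell by 6.03, and cey-3, another Y-box gene, fell by 5.90. gln-5, of the glutamine synthetase family, fell by 6.28, and era-1 fell by 6.01. The 5 genes with only a sequence name, T21C9.13, W05F2.3, F14H3.6, Y52B11A.8 and C37C3.9, fell, with differences of -7.03 to -6.25. On array 2A cpg-3 read 4.80, against 7.08 on 2C, the widest spread at 2 h among the 15.

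**Figure D3:**
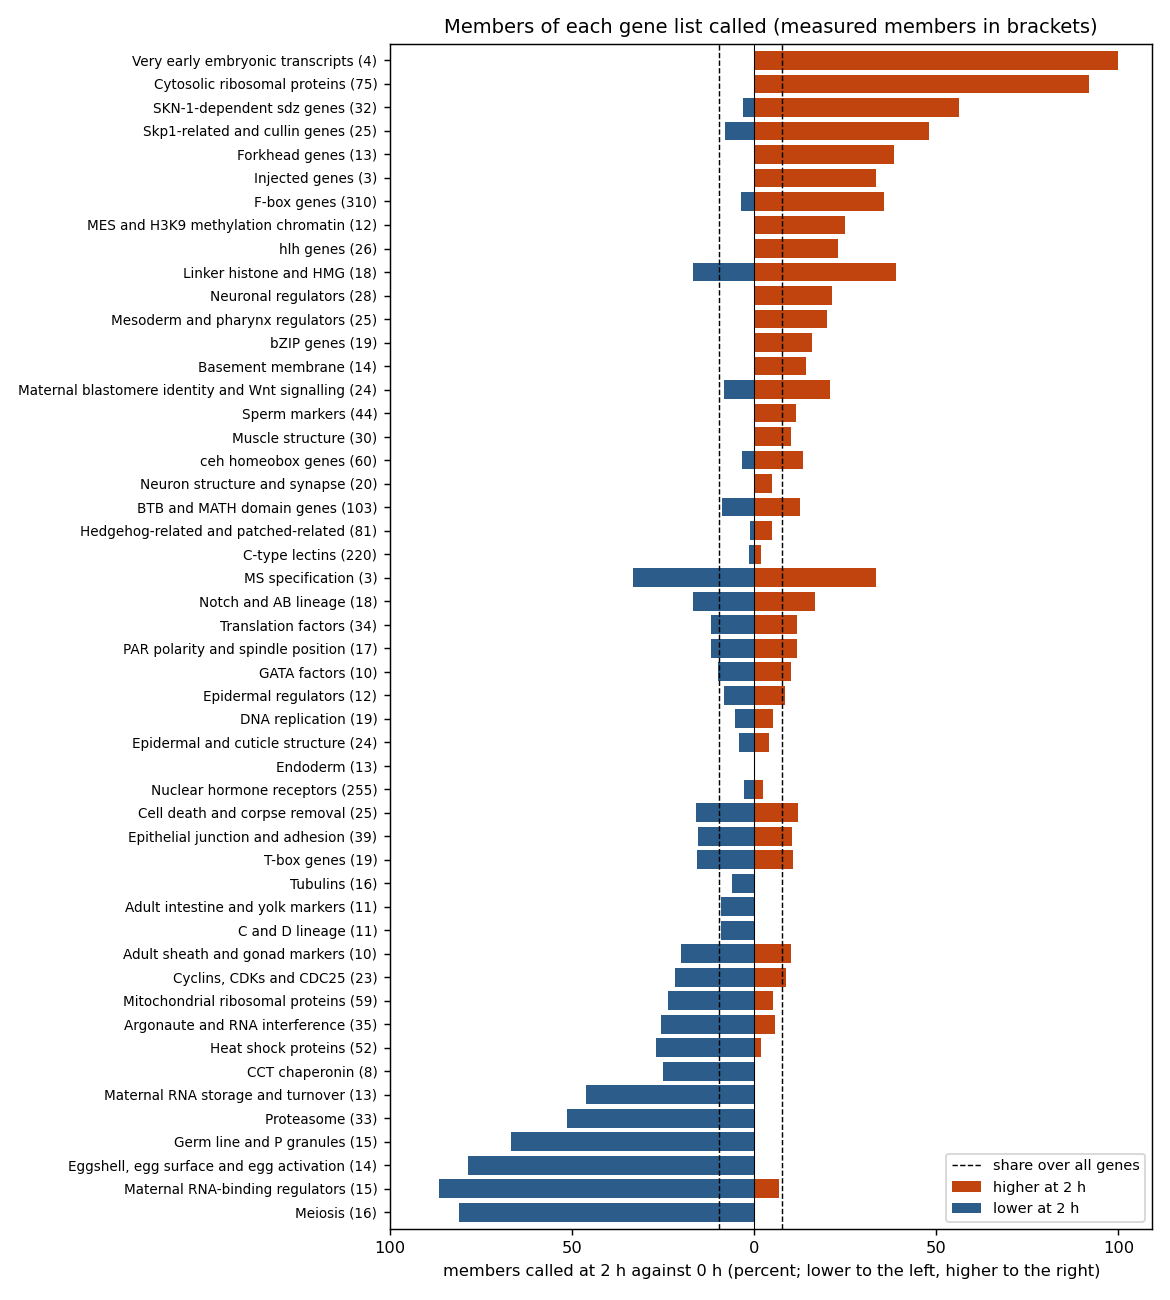
Share of the measured members of each of the 50 gene lists that were called higher (right) or lower (left) at 2 h, with the shares over all genes, 7.74% and 9.65%, as dashed lines. Eggshell, maternal RNA-binding and meiosis genes reach far past the left line, and ribosomal protein, Skp1-related, F-box and very early embryonic genes far past the right line.

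Maternal regulators of translation fell almost as a group. Of 15 RNA-binding regulators 13 fell (86.7%), the median difference was -4.18, and all 13 calls held without each array in turn. pos-1, a zinc-finger regulator of posterior fates, had 5.93, 5.92 and 6.51 on the 2 h arrays, against 11.40, 11.19 and 11.2 on the 0 h arrays (difference -5.15). The anterior regulator mex-5 had 5.95, 5.60 and 5.62 at 2 h, against 10.22, 8.24 and 9.56 at 0 h (difference -3.61). Neither gene's groups overlapped. spn-4, puf-5, puf-3, mex-6, pie-1 and mex-3 fell, with differences of -4.71, -5.42, -4.49, -4.39, -4.25 and -4.06. oma-1 fell by 2.91, and its 2 h arrays, at 5.29, 6.77 and 7.25, lay lower than its 0 h arrays of 10.15, 8.58 and 9.33. gld-1, a repressor of translation in the germ line, fell by 1.70, although another of its probe sets did not pass. The 1 member that rose was the injected mex-1.

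RNA storage proteins fell in part. Of 13 such genes 6 fell (46.2%) and 0 rose, where limma also gave 0 higher at an unadjusted p under 0.05, and the median difference was -1.03. Beside cey-2 and cey-3, car-1, of the cytoplasmic granules of germ line and embryo, had 7.55, 6.94 and 7.33 at 2 h, against 10.68, 9.27 and 10.27 at 0 h. The DEAD-box helicase gene cgh-1 had 4.36, 4.44 and 4.42 at 2 h, against 7.69, 5.78 and 7.14 at 0 h. In both genes array 0B was the lowest of the 0 h arrays and still above every 2 h array, and they fell (differences -2.80 and -2.47).

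Eggshell and egg surface transcripts were among the most reduced. Of 14 such genes 11 fell (78.6%), with a median difference of -4.55, and all 11 calls held without each array in turn. Beyond the cpg genes, cbd-1, a chitin-binding protein gene of the eggshell, fell by 5.90. egg-2 and egg-3, which act at the egg surface and in egg activation, fell (differences -5.31 and -4.66). gna-2, an enzyme gene of the chitin precursor pathway, fell by 4.44, and rme-2, the yolk receptor of the oocyte, fell by 4.19.

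Germ line and meiotic transcripts followed. Of 15 germ line and P granule genes 10 fell (66.7%), with a median difference of -1.47. nos-2, a Nanos gene of the primordial germ cells, had 4.44, 4.36 and 4.42 at 2 h, against 9.58, 10.07 and 9.58 at 0 h, a tight pair of groups that differed by -5.33. deps-1 and pgl-3, genes of P granule components, fell (differences -3.48 and -2.96). Of 16 meiosis genes 13 fell (81.2%), with a median of -2.99. him-5, a gene of meiotic crossing over, had 2.73, 3.55 and 3.02 at 2 h, against 8.41, 8.84 and 8.57 at 0 h. The synaptonemal complex gene syp-2 fell by 5.24, and him-3, of the meiotic chromosome axis, fell by 4.29. With arrays placed by their time tags the meiosis count was 7.

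Signalling genes that act in the first blastomeres held calls in both directions. The list of blastomere identity and Wnt genes had 5 of 24 higher (20.8%) and 2 lower (8.33%), with a median of 0.154. The shares over all genes were 7.74% higher and 9.65% lower, so the lower share of the list was under that of all genes. The higher count was 3 when any of 2 h B, 2 h C, 0 h B or 0 h C was left out, and 2 of the 5 calls held without each array in turn. The lower count was 4 with arrays placed by their time tags and with the hybridisation controls. mom-2, the Wnt ligand of the posterior blastomere P2, had 3.70, 3.71 and 4.32 at 2 h, against 9.47, 8.99 and 8.70 at 0 h, and fell by 5.14. glp-1, a maternal Notch receptor, had 3.66, 3.86 and 4.74 at 2 h, against 7.33, 5.54 and 6.21 at 0 h, and fell by 2.27. The ligand was thus near the background mark on all 2 h arrays, and the receptor within 2 log2 units of it.

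On the receiving side of the Wnt pathway some genes rose. The Frizzled receptor gene mom-5 had 7.39, 8.01 and 8.14 at 2 h, against 5.22, 5.88 and 5.91 at 0 h, and rose by 2.17. The Dishevelled gene dsh-1 had 6.69, 7.40 and 7.33 at 2 h, against 4.44, 5.12 and 4.95 at 0 h, and rose by 2.31. Another mom-5 probe set missed the threshold, and of the other dsh-1 probe sets 1 passed with 1.61 and 1 missed it with -0.62. The mom-5 call ended with arrays placed by their time tags and with the hybridisation controls, under each of which 1 member of the list was higher. wrm-1, a beta-catenin gene, rose by 1.76, a call lost without any of 2 h B, 2 h C, 0 h B or 0 h C. The maternal factor skn-1 differed by -1.32 (adjusted p = 0.058) and the TCF gene pop-1, within background at both times, by 0.10 (adjusted p = 0.72).

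Among 17 genes of cell polarity and spindle position 2 rose and 2 fell. gpr-2, whose product links cortical force generators to the spindle, had 8.68, 8.32 and 8.40 at 2 h, against 5.04, 5.79 and 6.40 at 0 h, and rose by 2.73. Its probe set can cross-hybridise. par-2, of the posterior cortex, rose by 1.39, and 2 further probe sets of par-2 did not pass. let-99, a spindle positioning gene, fell by 1.61, to within background, and the 14-3-3 gene par-5, at 12.39 ± 0.31 at 2 h and 13.78 ± 0.04 at 0 h (SD, n = 3), fell by 1.39, though 1 of its 2 other probe sets missed the threshold. With the hybridisation controls 1 member of the list was higher and 5 lower.

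The cell cycle list held 5 genes of 23 that fell (21.7%) and 2 that rose (8.7%). Transcripts of cyb-2.2 and cyb-2.1, near-identical cyclin B genes whose probe sets can cross-hybridise, fell (differences -3.27 and -3.84). cdc-25.3, a phosphatase gene of mitotic entry, had 6.40, 6.53 and 5.99 at 2 h, against 8.84, 9.64 and 9.36 at 0 h, and fell by 2.97. cdc-25.1 fell by 2.43, a call lost without any of 2 h A, 2 h B or 0 h A. The cyclin A gene cya-1 had 5.75, 7.53 and 6.72 at 2 h, against 4.18, 3.75 and 4.07 at 0 h, and rose by 2.67, with another probe set missing the threshold at 1.99, and cdk-4, a kinase of the G1 phase, rose by 1.77. With arrays placed by their time tags 1 gene of this list was lower and 0 were higher. Of 19 replication genes 1 was higher and 1 lower, shares of 5.26% each that are under those of all genes. The higher count was 0 when any of 2 h B, 2 h C, 0 h B or 0 h C was left out and 2 without 2 h A, and the lower was rnr-2, a ribonucleotide reductase gene, which fell by 1.22.

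Chromatin genes of the MES and H3K9 methylation list had a few rises. Of 12 members 3 were higher (25%) and 0 lower, limma's count at unadjusted p under 0.05 being 0 as well, and the median was 0.353. hpl-1, an HP1 gene, rose by 1.75, from arrays of 7.66, 8.39 and 8.10 at 2 h against 5.95, 6.45 and 6.49 at 0 h. With arrays placed by their time tags, or centred on the hybridisation controls, 0 members were higher.

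Structural chromatin genes changed in both directions. In the linker histone and HMG list 7 of 18 genes rose (38.9%) and 3 fell (16.7%), with a median of 0.113. Without 0 h A 5 of them were lower, and with arrays placed by their time tags 4 were higher and 1 lower. Beside his-24 and hmg-11, the linker histone genes hil-3 and hil-2 rose. hil-2 had 12.10, 12.63 and 12.76 at 2 h, against 8.36, 8.49 and 8.49 at 0 h (difference 4.05), and hil-3 had 10.57, 11.38 and 10.93 at 2 h, against 6.16, 5.98 and 6.23 at 0 h (difference 4.84). Neither gene's groups overlapped. In the opposite direction hil-5 had 9.30, 9.65 and 10.04 at 2 h, against 12.20, 12.17 and 12.23 at 0 h, and fell by 2.53. The HMG genes split in the same way, with hmg-12 lower (difference -3.63) and hmg-1.2 higher by 2.51, though both other probe sets of hmg-1.2 missed the threshold. Linker histones compact nucleosome arrays and HMG proteins bend or bind DNA in chromatin.

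Genes known as the first to be transcribed in the embryo were all higher. The 4 measured very early embryonic transcripts rose by a median of 5.56. vet-6 had 9.65, 10.31 and 10.36 at 2 h, against 3.64, 3.62 and 3.18 at 0 h (difference 6.63). pes-10, an early marker of zygotic transcription in somatic blastomeres, had 7.98, 7.60 and 7.98 at 2 h, against 2.43, 2.96 and 2.57 at 0 h (difference 5.20). All its 0 h arrays were within background. vet-1 and vet-2 rose by 5.92 and 4.85.

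The SKN-1-dependent zygotic genes showed 18 of 32 higher (56.2%) and 1 lower (3.12%). Their median difference was 0.71, and 10 members rose by 4 or more. With the hybridisation controls 11 were higher and the median was -0.022, and with arrays placed by their time tags 12 were higher. 13 of the 18 calls held without each array in turn. sdz-4 had 10.39, 10.50 and 10.56 at 2 h, against 3.68, 3.65 and 3.91 at 0 h (difference 6.74). sdz-25 had 9.13, 8.78 and 8.93 at 2 h, against 2.75, 2.29 and 2.61 at 0 h (difference 6.40). At the low end of the calls sdz-1 rose by 1.43, and this call was lost without 0 h A or 0 h C. The member that fell, sdz-37 (difference -2.11), did so on a probe set that can cross-hybridise.

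In the list of 3 MS genes ceh-51 rose alone. The other members were near or within background: tbx-35, a T-box gene that acts upstream of it, had 2.72, 2.37 and 2.48 at 2 h, against 2.57, 2.45 and 2.38 at 0 h, and differed by 0.06 (adjusted p = 0.9). med-1, a GATA-type gene that starts MS and E fates, read 2.81, 2.53 and 2.70 at 2 h, against 3.28, 3.08 and 3.15 at 0 h. Both groups were close to the mark, and although its difference of -0.49 passed the test, the call was lost without 2 h B or 0 h A. The call also ended with all 15 arrays in the fit, by title or by time tag. Centring on the Affymetrix controls or on the hybridisation controls ended it as well. A level within background shows only that these probe sets did not register the transcript.

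Among 25 regulators of pharynx and mesoderm 5 rose (20%) and 0 fell, while limma gave 1 lower at an unadjusted p under 0.05. The list's median of 0.076 was close to that of all genes, and 10 members were within background at both times. pha-4, the FoxA gene that selects pharyngeal identity, had 5.83, 7.73 and 7.48 at 2 h, against 3.44, 3.15 and 3.15 at 0 h (difference 3.76). hnd-1, a Hand-type gene of mesoderm, had 6.46, 5.38 and 6.45 at 2 h, against 2.61, 2.39 and 2.83 at 0 h (difference 3.48). The Eyes absent gene eya-1 had 7.83, 8.72 and 8.31 at 2 h, against 4.77, 4.10 and 4.76 at 0 h (difference 3.74). No 2 h array of these genes reached down to a 0 h array. The forkhead gene fkh-2 rose by 3.22 and the homeobox gene mls-2, of postembryonic mesoderm and of neurons, by 2.75, with another mls-2 probe set missing the threshold. The muscle regulator hlh-1 differed by 0.17 (adjusted p = 0.84) and unc-120, another, by -0.05 (adjusted p = 0.96), at levels within background, and let-381, a forkhead gene, by -0.14 (adjusted p = 0.86).

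No endoderm gene was called. Of 13 members limma called 0 in either direction, and without adjustment, at p under 0.05, it gave 0 higher and 1 lower, and the median was -0.047. end-1 and end-3, the GATA genes that specify the E blastomere, measured 3.81 ± 0.30 and 4.82 ± 0.14 at 2 h, and 3.68 ± 0.23 and 4.82 ± 0.32 at 0 h (SD, n = 3). The gut differentiation factors elt-2 and elt-7 differed by 0.22 (adjusted p = 0.54) and 0.25 (adjusted p = 0.78). With arrays centred on the hybridisation controls 1 member was lower.

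Lineage genes of the other blastomeres divided. In the Notch and AB list 3 of 18 were higher (16.7%) and 3 lower (16.7%), and with the hybridisation controls 1 was higher. lin-12, the zygotic Notch receptor gene, had 5.54, 6.00 and 6.34 at 2 h, against 3.69, 3.41 and 3.67 at 0 h, and rose by 2.37. The presenilin gene hop-1, whose product cuts Notch receptors, had 5.05, 4.20 and 4.16 at 2 h, against 8.62, 8.28 and 7.99 at 0 h, and fell by 3.83. Among the Notch receptor genes the maternal glp-1 was thus lower and the zygotic lin-12 higher. die-1, a zinc-finger gene, rose by 2.09, with another probe set missing the threshold. In the C and D lineage list limma called 0 of 11 higher, with 2 at an unadjusted p under 0.05, and 1 lower. That gene was tbx-9, a T-box gene, with 2.92, 2.89 and 2.94 at 2 h, against 6.78, 7.16 and 7.27 at 0 h, and its 2 h arrays were all within background (difference -4.16).

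Ectoderm regulators were counted as epidermal and neuronal lists. Of 12 epidermal regulators 1 rose, the GATA gene elt-1, by 1.88, and 1 fell, lin-26, a zinc-finger gene (difference -2.31). elt-1 had 7.58, 6.75 and 6.12 at 2 h, against 4.79, 4.96 and 5.07 at 0 h, and its call ended with arrays placed by their time tags or centred on the hybridisation controls. Of 28 neuronal regulators 6 rose (21.4%) and 0 fell, with 0 lower at an unadjusted p under 0.05 in limma, and the median was 0.109. hlh-14, an Achaete-Scute gene, had 8.94, 7.29 and 7.79 at 2 h, against 4.29, 3.80 and 3.82 at 0 h (difference 4.04). The neurogenin gene ngn-1 had 6.97, 6.69 and 6.47 at 2 h, against 4.39, 4.63 and 4.13 at 0 h (difference 2.33). In both the 2 h arrays were clear of the 0 h arrays. ceh-36, an Otx-type homeobox gene, rose by 2.84 and hlh-2, the E protein that pairs with proneural factors, by 2.1. cnd-1, a NeuroD gene, rose by 2.32, a call lost without 2 h A or 0 h C. With arrays placed by their time tags 3 neuronal regulators were higher.

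Transcription factor families showed few but large rises. Of 13 forkhead genes 5 rose (38.5%) and 0 fell, with 2 lower at an unadjusted p under 0.05 in limma, and the 5 calls held without each array in turn, although 3 were higher with the hybridisation controls. fkh-5 had 10.20, 9.69 and 10.15 at 2 h, against 3.97, 4.18 and 4.72 at 0 h (difference 5.72). Of 60 ceh homeobox genes 8 rose (13.3%) and 2 fell (3.33%), counts that were 4 and 0 with arrays placed by their time tags. The lower count was 4 without 0 h A and 1 without any of 2 h B, 2 h C or 0 h C. ceh-20, the Pbx-type partner of Hox proteins, had 9.03, 9.31 and 8.98 at 2 h, against 2.75, 4.28 and 4.36 at 0 h (difference 5.31). ceh-43, a Distal-less gene, had 8.34, 7.81 and 7.05 at 2 h, against 3.78, 3.73 and 3.85 at 0 h (difference 3.95). These genes were near background at 0 h and well above it on every 2 h array.

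Of 19 T-box genes 2 were higher (10.5%) and 3 lower (15.8%), shares not far from those over all genes, and all 5 calls held without each array in turn. tbx-43 had 7.24, 6.99 and 7.78 at 2 h, against 3.15, 3.03 and 2.98 at 0 h (difference 4.28). tbx-36 showed the opposite, with 2.94, 2.56 and 2.92 at 2 h, against 7.11, 7.89 and 7.45 at 0 h (difference -4.67). Each was thus within background at 1 of the 2 times. Of 19 bZIP genes 3 rose (15.8%) and 0 fell, with 1 lower at an unadjusted p under 0.05 in limma. The largest change was that of zip-8, at 10.32 ± 0.10 at 2 h and 4.06 ± 0.44 at 0 h (SD, n = 3), on a probe set that can cross-hybridise, and zip-2 rose by 3.11. Both calls ended with arrays placed by their time tags, where 0 bZIP genes were higher.

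The large family of nuclear hormone receptors was mostly within background. Of 255 genes 6 rose (2.35%) and 7 fell (2.75%), shares under those of all genes, and 162 were within background at both times. By the time tags, or with the hybridisation controls, 1 was higher. nhr-2, an early zygotic member, had 7.83, 8.79 and 8.85 at 2 h, against 5.95, 6.07 and 5.05 at 0 h, and rose by 2.80, with 1 of its other probe sets missing the threshold. Of 26 hlh genes 6 rose (23.1%) and 0 fell, with 0 at an unadjusted p under 0.05 in limma, and these include hlh-14, hnd-1, ngn-1, cnd-1 and hlh-2. By the time tags 3 were higher. Of 10 GATA genes 1 rose and 1 fell, elt-1 and med-1.

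F-box genes formed the broadest block of rises. F-box proteins bind substrates of SCF ubiquitin ligases, in which Skp1 proteins join them to a cullin, and the C. elegans genome holds very many of these genes in recently expanded families. Of 310 F-box genes 110 rose (35.5%) and 11 fell (3.55%), and 103 of the rises held without each array in turn. The lower count was 7 when any of 2 h A, 0 h B or 0 h C was left out. 147 members were within background at both times.

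The 3 named subfamilies, divided after the values were seen, gave the following counts. Of 95 fbxb genes 83 rose (87.4%) and 0 fell, with 0 lower at an unadjusted p under 0.05 in limma, and the median difference was 3.85. On probe sets without a cross-hybridisation suffix 71 of 83 fbxb genes rose, where the background share was 6.44%. Of 44 fbxc genes 20 rose (45.5%) and 2 fell, with 10 higher by the time tags and 12 with the hybridisation controls, and of 171 fbxa genes 7 rose (4.09%) and 9 fell (5.26%), both under the shares over all genes. Their lower count was 5 without any of 2 h A, 0 h B or 0 h C. Of the fbxa genes 124 were within background at both times.

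fbxb-66 had 10.82, 10.54 and 10.42 on the 2 h arrays, against 3.53, 3.26 and 3.60 on the 0 h arrays, and rose by 7.13. fbxb-96 had 10.93, 11.07 and 10.84 at 2 h, against 3.42, 4.28 and 3.96 at 0 h, and rose by 7.06. fbxb-22 had 8.18, 8.30 and 8.52 at 2 h, against 2.15, 2.22 and 2.19 at 0 h, and rose by 6.14. The first pair started a little above the mark and fbxb-22 well within background. Among the fbxc genes fbxc-28 rose by 6.63, while fbxc-50 fell by 5.14, with another probe set differing by 0.09. fbxa-215 had 3.84, 3.32 and 3.64 at 2 h, against 8.42, 8.96 and 8.02 at 0 h, and fell by 4.86, a call that ended with arrays placed by their time tags.

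**Figure D4:**
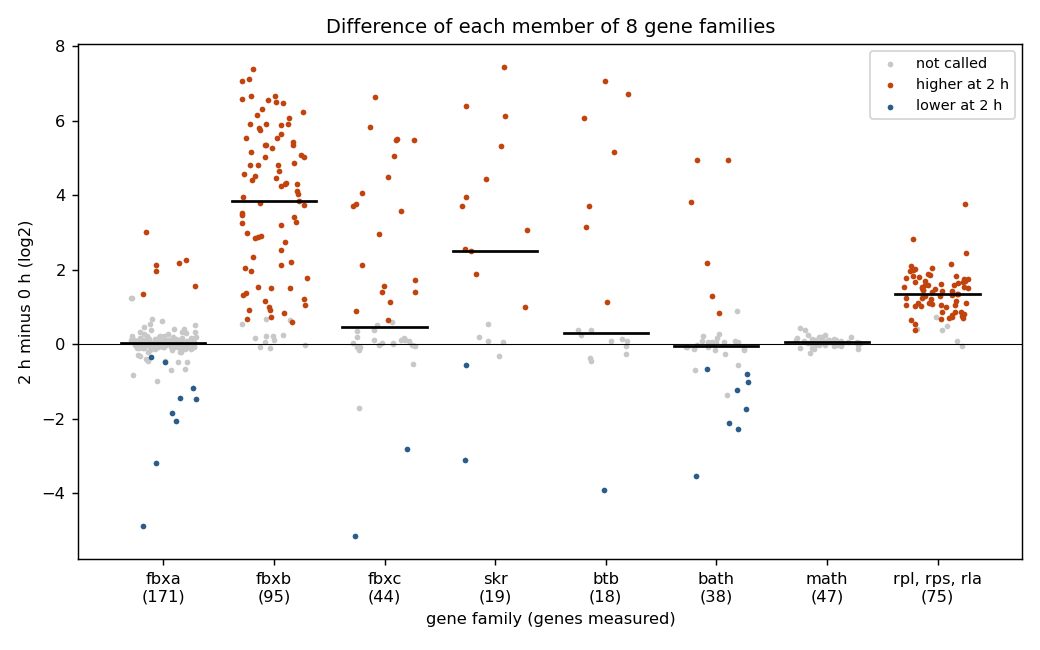
Difference between 2 h and 0 h (log2) of each gene of 8 families, with the family median as a bar and the number of genes in brackets. The F-box, Skp1-related, BTB and MATH lists were divided into these families after the values were seen. The fbxb and skr genes lie mostly above 0 (medians 3.85 and 2.50), the fbxa and math genes centre on 0, and the ribosomal protein genes form a narrow band around 1.36.

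Skp1-related genes rose beside them. The list of 25 Skp1-related and cullin genes had 12 higher (48.0%) and 2 lower (8.0%), with a median of 1.31. It was divided into skr and cullin genes after the values were seen. Of 19 skr genes 12 rose (63.2%) and 2 fell, with a median of 2.50, and the 12 rises held without each array in turn. skr-8 had 13.07, 12.65 and 12.48 at 2 h, against 5.64, 6.56 and 6.81 at 0 h (difference 6.40). skr-10 had 12.12, 11.77 and 11.76 at 2 h, against 4.66, 6.06 and 6.55 at 0 h (difference 6.13). Every 2 h array exceeded every 0 h array by more than 5 log2 units. The probe sets of skr-8, skr-9 and skr-13, which rose by 6.40, 7.43 and 5.32, can cross-hybridise, and on plain probe sets 6 of 13 skr genes rose. skr-17 went the other way, with 5.10, 5.15 and 5.08 at 2 h, against 7.96, 8.32 and 8.33 at 0 h, and fell by 3.10, and it was the 1 lower call of the family without any of 2 h A, 2 h C, 0 h B or 0 h C. Of the 6 cullin genes limma called 0, with 3 higher at an unadjusted p under 0.05, but 2 were called higher without 2 h A or 0 h A.

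The 103 BTB and MATH genes encode adaptors of cullin 3 ligases or relatives of them. In this list 13 were higher (12.6%) and 9 lower (8.74%), not far from the 7.74% and 9.65% over all genes. The list was divided by subfamily after the values were seen. Of 18 btb genes 7 rose (38.9%) and 1 fell, all holding without each array in turn. btb-8 had 10.02, 10.14 and 10.27 at 2 h, against 3.43, 3.10 and 2.74 at 0 h (difference 7.05), and btb-10 rose by 6.70. btb-19 had 3.62, 3.11 and 3.14 at 2 h, against 6.74, 7.66 and 7.20 at 0 h (difference -3.91). Of 38 bath genes 6 rose (15.8%) and 8 fell (21.1%), with 2 higher by the time tags and 3 with the hybridisation controls. Of 47 math genes limma called 0 in either direction, with 1 higher and 0 lower when p was left unadjusted at under 0.05, and 45 of the 47 were within background at both times.

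Genes of the ribosome rose almost without exception and by little. Of 75 cytosolic ribosomal protein genes 69 rose (92.0%) and 0 fell, with 0 lower at an unadjusted p under 0.05 in limma, and the median difference was 1.36. rps-16 had 13.12, 13.14 and 13.13 at 2 h, against 11.01, 11.67 and 11.2 at 0 h (difference 1.84). rps-13 had 12.01, 11.95 and 11.83 at 2 h, against 9.72, 10.14 and 9.83 at 0 h (difference 2.03). The 2 h arrays were close to each other and above all 0 h arrays. The largest rise of the list was that of rpl-23A.1, by 3.77. The count depended on scale and grouping: with arrays placed by their time tags it was 34, and with the hybridisation controls, under which the median of all probe sets was -0.71, it was 3 and the list's median 0.63.

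Mitochondrial ribosomal proteins did not share this. Of 59 genes 3 rose (5.08%) and 14 fell (23.7%), with a median of -0.39. The count of falls was 8 when 0 h C was left out and 22 when 0 h A was, and mrpl-44, the largest, fell by 2.35 with both its other probe sets missing the threshold. Of 34 translation factors 4 rose and 4 fell (11.8% each), while the lower count was 7 without 0 h A and 8 with the hybridisation controls and the higher count 1 there and by the time tags. ife-4, an eIF4E gene for the cap-binding protein, had 7.51, 7.17 and 7.41 at 2 h, against 4.22, 4.79 and 4.37 at 0 h, and rose by 2.90. eif-2A had 3.65, 5.27 and 5.05 at 2 h, against 7.60, 7.17 and 7.39 at 0 h, and fell by 2.73.

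Proteasome transcripts fell. Of 33 genes 17 fell (51.5%) and 0 rose, with 0 higher at an unadjusted p under 0.05 in limma, and the median difference was -1.69. In the catalytic core 12 of 14 genes fell (85.7%, median -2.32), and in the regulatory cap 5 of 19 did (26.3%, median -1.03), a division made after the values were seen and not tested. The cap's count was 3 when any array but 0 h A was left out, 1 by the time tags and 15 with the hybridisation controls, under which 14 of the 14 core genes were lower. pas-2, a ring subunit of the core, had 7.10, 6.92 and 7.25 at 2 h, against 9.91, 10.36 and 10.24 at 0 h (difference -3.08). pbs-6 had 8.17, 8.69 and 9.22 at 2 h, against 11.27, 11.48 and 11.69 at 0 h (difference -2.78). pas-1 fell by 3.52, with array 2A at 3.72 lowest and 2B and 2C at 5.62 and 6.20. The list's count was 10 with arrays placed by their time tags and 29 with the hybridisation controls.

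Chaperone genes fell in part. Of 52 heat shock genes 14 fell (26.9%) and 1 rose (1.92%), with 2 higher without 2 h A or 0 h A. hsp-1, the main cytosolic Hsp70, had 4.17, 7.26 and 7.20 at 2 h, against 11.51, 9.52 and 10.41 at 0 h, and fell by 4.27 with array 2A far below the other 2 h arrays. sip-1, a small heat shock protein gene, had 10.24, 11.07 and 11.56 at 2 h, against 13.99, 14.06 and 13.99 at 0 h, and fell by 3.06. hsp-4, the BiP gene of the endoplasmic reticulum, fell by 2.62. Of 8 subunit genes of the CCT chaperonin 2 fell, and neither call held without each array in turn. For cct-6 (difference -1.75) it was lost without 2 h A or 0 h A, and the list's count ran from 0 to 3.

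Genes that build cell contacts divided within the innexins, which form gap junctions and were set apart after the values were seen. Of 21 innexin genes 2 rose (9.52%, near the 7.74% over all genes) and 6 fell (28.6%), all 8 holding without each array in turn. inx-14, which couples the germ line to the gonad sheath, had 3.74, 3.85 and 3.48 at 2 h, against 8.0, 8.92 and 8.24 at 0 h (difference -4.69). inx-22, which acts with it in the oocyte, had 4.64, 3.96 and 4.69 at 2 h, against 6.82, 6.68 and 6.19 at 0 h (difference -2.14). inx-21 fell by 2.53, with another probe set missing the threshold. The embryonic inx-2 had 11.46, 11.56 and 11.62 at 2 h, against 8.62, 8.03 and 8.19 at 0 h (difference 3.27), and inx-3 had 10.28, 10.81 and 10.97 at 2 h, against 8.44, 7.63 and 8.39 at 0 h (difference 2.53). The rises were thus from levels already well above background. Over the 39 junction and adhesion genes 4 rose (10.3%) and 6 fell (15.4%). The higher count was 2 when any of 2 h B, 0 h B or 0 h C was left out, and 2 of those 4 calls held without each array in turn.

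Structural genes of tissues had few calls. Of 30 muscle structure genes 3 rose (10%) and 0 fell, with 1 lower at an unadjusted p under 0.05 in limma. unc-97, a LIM protein of integrin attachments, rose by 2.28 and dim-1, of the muscle dense body region, by 2.30, while the myosin genes unc-54 and myo-3 differed by -0.21 (adjusted p = 0.28) and -0.04 (adjusted p = 0.91). Of 14 basement membrane genes 2 rose (14.3%) and 0 fell, with 0 at an unadjusted p under 0.05 in limma. epi-1, a laminin alpha gene, had 6.61, 7.78 and 7.02 at 2 h, against 2.98, 2.92 and 3.09 at 0 h, all of the 0 h arrays within background (difference 4.14). The integrin gene ina-1 rose by 1.51, with another probe set missing the threshold. With arrays placed by their time tags 0 genes of either list were higher. Of 20 genes of neuron structure and synapse 1 rose (5.0%, under the 7.74% over all genes), unc-119, by 1.90. Its call ended with arrays placed by their time tags and with the hybridisation controls. Of 24 genes of epidermis and cuticle 1 rose and 1 fell (4.17% each), and the rise ended under the same settings.

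Cell death and corpse removal genes gave 3 of 25 higher (12.0%) and 4 lower (16%). nuc-1, the DNase II that degrades DNA of dead cells, had 10.50, 10.34 and 10.29 at 2 h, against 4.26, 4.32 and 4.31 at 0 h (difference 6.08). ced-9, the Bcl-2 gene that restrains death, rose by 1.82, a call lost without any of 2 h B, 2 h C or 0 h A. The engulfment gene ced-2 had 6.92, 6.90 and 6.88 at 2 h, against 8.42, 8.26 and 8.48 at 0 h, and fell by 1.49. egl-1, which triggers death, differed by 0.38 (adjusted p = 0.56).

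Small RNA pathway genes fell in part, with 9 of 35 lower (25.7%), 2 higher (5.71%) and a median of -0.52. wago-1, an Argonaute of the germ line, had 3.86, 2.87 and 2.79 at 2 h, against 9.66, 7.63 and 7.84 at 0 h (difference -5.20). The Piwi gene prg-1 had 4.02, 4.97 and 5.13 at 2 h, against 8.61, 6.76 and 7.66 at 0 h (difference -2.97). nrde-3, a nuclear Argonaute of somatic cells, had 7.24, 7.64 and 7.47 at 2 h, against 6.34, 4.03 and 5.28 at 0 h, and rose by 2.23. All groups included injected mothers, so the response to double-stranded RNA itself is not compared here. With arrays placed by their time tags 5 of these genes were lower and 1 higher. With the hybridisation controls 12 were lower and 0 higher, so the nrde-3 call ended there.

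Several large families outside development changed in few members. Of 220 C-type lectin genes 4 rose (1.82%) and 3 fell (1.36%), and 143 were within background at both times. clec-87 had 9.34, 10.36 and 10.69 at 2 h, against 13.66, 13.68 and 13.58 at 0 h, and fell by 3.51. Of 81 hedgehog-related and patched-related genes 4 rose (4.94%) and 1 fell, with 2 higher when any of 2 h B, 0 h B or 0 h C was left out. grl-11, a Ground-like gene, had 9.33, 8.79 and 8.58 at 2 h, against 2.65, 3.00 and 2.74 at 0 h (difference 6.10). Of 16 tubulin genes 1 fell, the gamma-tubulin gene tbg-1 of the centrosome, by 1.23, and 0 rose, with 0 at an unadjusted p under 0.05 in limma.

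Called genes were unevenly spread over the chromosomes. The X chromosome had the largest share of higher genes and the smallest of lower genes, with 258 of 2350 genes higher (11%) and 47 lower (2.0%). Chromosome I had 8.72% higher and 15.4% lower, chromosome III 7.91% and 15.0%, and chromosome IV 7.43% and 11.4%. Chromosome V, the gene-richest, had the smallest share of higher genes at 3.82%, and 6.09% lower. Chromosome II had 9.89% higher and 10.5% lower, and 77 of the 200 rises of 4 or more log2 units. Without the F-box, skr and BTB or MATH families its higher share was 7.89%, and that of X 10.9%. The lower share was smallest on X also with arrays placed by their time tags (1.53%) and with the hybridisation controls (2.38%), but under these settings chromosome II had the largest higher share, at 5.94% and 4.68%, against 4.72% and 4.51% on X. The X chromosome of C. elegans is known to be poor in genes expressed in the germ line.

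Genes that rose or fell the most were short. From start to end on the WBcel235 assembly the 200 genes that rose by 4 or more log2 units had a median span of 1306 bp, against 2185 bp over the 17071 tested genes with a span. The 128 genes that fell by 4 or more log2 units had a median span of 1616 bp. The 1316 higher genes with a span had a median of 1792 bp and the 1650 lower genes one of 2030 bp. The quartiles for the largest rises, 1042 and 1898 bp, overlap those of all genes, 1353 and 3867 bp. The span includes introns. Many of the genes with the largest rises belong to the compact F-box, skr and btb families, so family and length cannot be told apart for them.

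The levels at 3 h and 4 h, from 3 arrays each, are set beside the 2 h values as a description, since the differences share the 2 h arrays and were not tested. Over the 1326 higher genes the median level was 4.36 in 0 h embryos, 7.36 in 2 h embryos, 6.56 in 3 h embryos and 6.07 in 4 h embryos. Over the 1653 lower genes these medians were 7.32, 4.79, 4.65 and 4.59. The lower genes had thus nearly reached their later median at 2 h, whereas the higher genes had the highest of these medians at 2 h. Both groups were chosen on the 2 h values, which tends to place the extreme there.

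Among the 15 largest rises the later courses differed. In the order 0, 2, 3 and 4 h, hmg-11 measured 3.31, 11.67, 11.68 and 11.72, and his-24 measured 4.57, 12.69, 12.97 and 13.07. In the same order dsl-1 had 3.41, 11.25, 8.72 and 5.41, and ceh-51 had 4.14, 11.38, 6.12 and 4.82. A persistent and a passing form were thus both present among the largest rises. The same held within the F-box genes: fbxb-66 had 11.32 at 3 h and 10.42 at 4 h, whereas fbxb-22 had 2.55 and 2.30, within background. Over these times the median of all 95 fbxb genes was 3.05, 7.44, 4.42 and 3.53, and that of the 19 skr genes 5.76, 8.07, 9.01 and 7.25.

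Some regulators that were not called at 2 h were high later. Over 0, 2, 3 and 4 h let-381 measured 3.16, 3.02, 9.22 and 10.21, and egl-1 measured 3.11, 3.49, 6.87 and 7.10. ceh-22, a homeobox gene of pharyngeal muscle, was at 3.02, 3.02, 3.12 and 7.14 at those times, and tbx-2, a T-box gene of the anterior pharynx, at 3.70, 3.80, 5.57 and 5.26. The 2 h arrays thus held pha-4 at 7.01 while ceh-22, a known target of it in the pharynx, was within background.

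**Figure D5:**
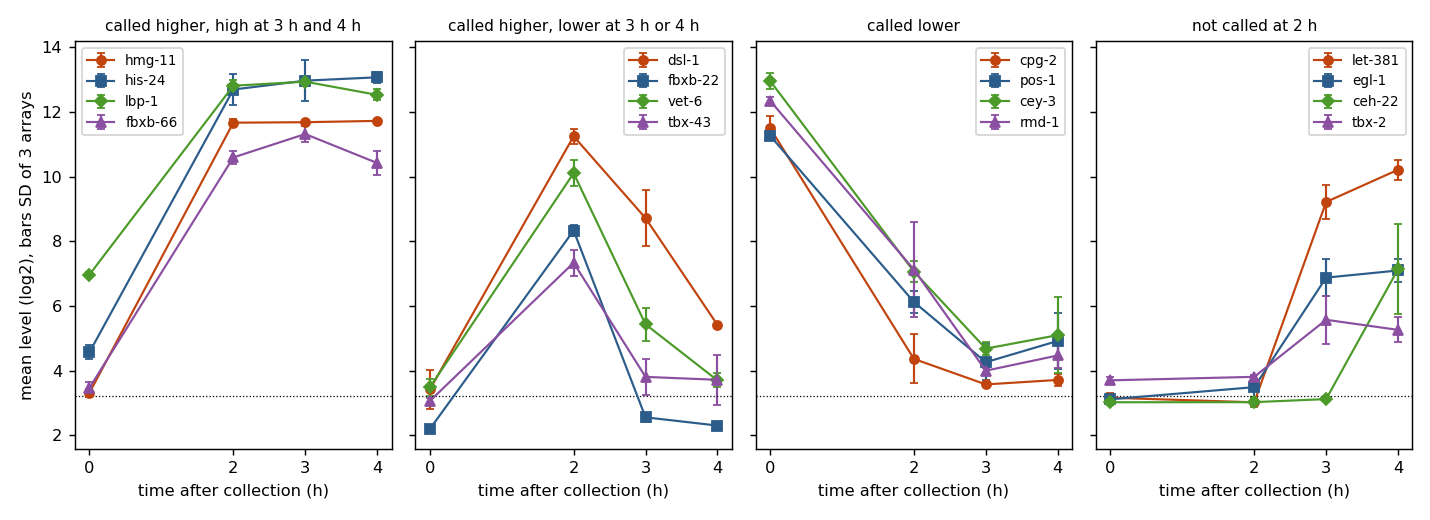
Mean level (log2, bars SD of 3 arrays) at 0, 2, 3 and 4 h of 16 genes in 4 panels, with the background mark of 3.22 dotted. The first panels hold genes high at 2, 3 and 4 h, and genes called higher at 2 h whose levels are lower at 3 h or 4 h. The others hold genes that fell, and genes within or near background at 2 h whose levels are higher at 3 h or 4 h. No 1 h array is shown, so the time of an onset or peak cannot be read. The genes were picked after their values were seen.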

How the data were processed

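Total RNA of C. elegans embryos was labelled with biotin and hybridised to 1-colour Affymetrix arrays, per the labels. The deposited table holds log2 values of 22625 probe sets. RMA produced them, according to the submitters' processing notes, which give no version. RMA corrects background, normalizes between arrays, summarises probes and compresses low values. The medians of the deposited columns used here are 3.17 to 3.31. Scanner files and detection calls were not used here.

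Arrays were grouped by title. Arrays 1B and 1C have time tags of 2 h and 3 h, so no 1 h array entered the main fit, and placing all 15 arrays by tag was an alternative. The series' design text calls the triplicates independent, but neither mothers nor dates of collection are given, so a p-value reflects only the scatter of these samples, which may be technical. Their number limits the precision.

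The 77 control probe sets were left out, and nothing else was filtered. limma 3.58.1 (lmFit, eBayes; R 4.3.3) was fitted to the 12 arrays of 0, 2, 3 and 4 h, of which 3 h and 4 h only help to estimate the spread. Single-symbol probe sets, with symbols updated to the WBcel235 gene table through Entrez identifiers, gave 17138 genes, each represented by whichever of its probe sets had the greatest mean in the 12 arrays. Suffixes _s_at and _x_at were read as open to cross-hybridisation. Named are the 15 largest rises and falls with non-overlapping arrays, the injected genes, and list members. The 50 gene lists, and the comparison itself, were chosen with earlier results of these data known, and members to name after seeing their values. Lists are described by counts and medians, with no test of a list. The alternatives were other array sets, centring on array medians or controls, a filter on dim probe sets, a variance trend, array weights, a replicate block and leaving out each array. Promoters and protein lengths are not analysed here.

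The procedure was tested on simulated data drawn from the real means and spreads of the 22548 probe sets. Each probe set had 1 mean for all times and independent normal noise, with no offset shared by an array. The altered probe sets were few and were all raised at 2 h. Of 50 altered by 1 log2 unit it recovered 56%, and for 2, 3 and 4 units 88%, 96% and 96%. There were 5 false calls. In the real comparison 1714 probe sets were called higher and 2093 lower, and arrays may share offsets, so these rates do not give its error.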

Additional observations from a re-analysis of the deposited data

How the results depend on the processing

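The 2093 lower probe sets stayed within 1.5 times that count under every setting run, from 1641 with arrays placed by their time tags to 2689 with array weights. The 1714 higher probe sets numbered 818 by the time tags and 625 with the hybridisation controls as the centre, and the 1407 that rose at least 2-fold numbered 664 and 625; the causes were not tested. Other settings gave 1568 (array medians) to 2278 (array weights) higher. Leaving out each array in turn gave 1407 to 1745 higher and 1691 to 2247 lower. No pairing of samples by the letters A, B and C was seen, as the correlations of same-letter deviations were -0.0081, -0.082 and 0.069. Deviations from a mean of only 3 arrays per time cannot exclude a pairing. The replicate block gave 1638 higher and 1981 lower. Of 165 called genes among the 182 named, 45 lost their call by the time tags and 21 with the hybridisation controls, and vit-4 turned to 0.11 by the tags. RMA compression limits folds of dim genes.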

Other observations

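Called genes often lay beside each other. In the gene order of WBcel235, 407 of 1275 higher genes (31.9%) had a higher gene as neighbour, as did 13.1% of the genes that were not higher. Of 1645 lower genes 677 (41.2%) had a lower neighbour, as did 15.9% of the genes that were not lower. These shares were not tested. The longest run of higher genes held 7, all F-box genes on chromosome II from fbxb-26 to fbxc-26, and the longest run of lower genes held 8, on chromosome I. Cross-hybridisation of neighbouring copies and shared operons were not separated. The remaining genes in this section were chosen after their values were seen.

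The fatty acid binding protein gene lbp-1 had 13, 12.67 and 12.77 on the 2 h arrays, against 6.92, 7.06 and 6.94 on the 0 h arrays, and rose by 5.84. Its neighbour in the family lbp-3 rose by 3.79. asp-4, an aspartic protease gene of lysosomes, had 8.32, 7.79 and 7.68 at 2 h, against 4.32, 4.61 and 4.17 at 0 h, and rose by 3.57, with another probe set at 3.76. rmd-1, a gene of the spindle, had 5.43, 7.79 and 8.15 at 2 h, against 12.35, 12.25 and 12.45 at 0 h, and fell by 5.23, with array 2A lowest. Of 8 protein genes of the mitochondrial genome 4 were higher and 0 lower, where the shares over all genes were 7.74% and 9.65%. CYTB, of respiratory complex III, rose by 0.89, and ATP6, ND1 and ND4 by 0.95, 0.88 and 0.89, the ND4 call being lost without any of 2 h A, 0 h A or 0 h C. All 4 rises were under 2-fold. With the hybridisation controls all 625 higher probe sets rose at least 2-fold, and none of these 4 genes was among them.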
